A study of Bos taurus with 6 samples.

Results

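The readings described here are those of the control RNA in a study of bovine granulosa cells on dual-colour expression arrays, and they form 6 of the 12 RNA readings, since every array carried control RNA beside RNA of cows given cetrotide. They were chosen by the dye that the labels give for the control, which was Cy3 on the 3 arrays of slide 1 and Cy5 on the 3 arrays of slide 2. The control animals were multiparous Holstein cows whose ovaries had been stimulated with gonadotropins and which received no cetrotide. Their granulosa cells were aspirated in vivo from coasted follicles of pre-ovulatory size, 68 hours after the last injection of follicle stimulating hormone (FSH). The design names 3 control cows, and the labels do not say which cow is on which array. The readings of 1 area on both slides were therefore averaged as 1 replicate, which gave n = 3, and the spread between replicates may be technical. No comparison with the cetrotide RNA was made, and no test was run. The question was which genes stood high, in the middle or at the level of the negative controls.

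Granulosa cells line the inside of the ovarian follicle, surround the oocyte and are coupled to one another by gap junctions. Under FSH they convert androgens from the neighbouring theca into oestradiol, secrete inhibins and activins, and proliferate as the follicle grows. The surge of luteinizing hormone (LH) then turns them towards ovulation and luteinization. Coasting is a pause between the last FSH injection and the collection of oocytes, in which the stimulated follicles grow on without added FSH.

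Each of the 43794 gene probes was ranked by its intensity within its array, and the rank is given as a percentile, with 100 for the brightest probe. A gene with several probes is represented by its brightest one, and ± is the SD over the 3 replicates. On each array 153 negative control spots were read in the same dye, and the limit of detection is the intensity that 95% of them do not exceed. A gene is called high at a mean percentile of at least 90 with all 6 arrays above the limit, and middle when it is above the limit on at least 4 arrays without being high. Genes above the limit on 1 to 3 arrays are called detected in part. A probe's brightness depends on the probe as well as on the transcript, so the ranks order probes and not molecules, and the 2 rounds of amplification before labelling can favour some transcripts, which was not tested.

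Above the limit on at least 4 of the 6 arrays were 30421 gene probes (69.5%), and 11913 of the 15216 genes with a symbol (78.3%). Of the named genes, 2521 (16.6%) were high and 9392 (61.7%) were in the middle class. A further 1920 (12.6%) were detected in part, and 1383 (9.09%) were above the limit on no array. The median named gene stood at a percentile of 61.1. The share of probes above the limit was between 53.55% and 79.57% per array and lowest on slide 2, area 1. Ranks correlated across probes at 0.910 to 0.960 (Spearman) between the slides of 1 area at 0.910 to 0.954 between arrays of the same slide and at 0.898 to 0.926 between arrays that shared neither. For area 1 the value between slides, 0.910, was the lowest of the 3 areas and below several values between different areas, so the pairing of areas is weakest for replicate 1. The signal was concentrated, with 27.3% to 34.0% of the summed intensity of an array in 437 probes, the brightest 1%.

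The negative control limit is a low bar, as 70 genes of 8 other tissues showed. These genes, chosen for liver, muscle, brain, pituitary, mammary gland, testis, pancreas and placenta, included 42 (60%) above the limit on at least 4 arrays. None of the 70 was high, and their median percentile was 35.9. The highest of them was the urea cycle gene CPS1 at 76.0 ± 0.48, and 35.4% of all named genes lay above it. A gene in the middle class below that level is therefore not told apart from genes of unrelated tissues, and the counts above CPS1 are given beside the classes.

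At the top stood the machinery of protein synthesis together with a few granulosa cell products. Of the 30 highest named genes, 9 carried ribosomal protein symbols, led by RPL34 at 99.9 ± 0.04, and 11 carried only LOC symbols. EIF1 and EIF3E, both translation initiation factors, were among the other 10. So were the intermediate filament protein VIM, the chromatin protein HMGN1, the RNA-binding proteins HNRNPDL and CIRBP, the disulphide isomerase PDIA6 and the lysosomal membrane protein LAPTM4B. The last members of this group were SERPINE2, a secreted inhibitor of plasminogen activators and thrombin, and INHBA, the beta A subunit of activin A and inhibin A. The order within this group is weakly resolved, because 110 to 204 gene probes per array lay within 10% of the brightest intensity.

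The granulosa cell label was checked with 6 markers. INHBA read 99.98, 99.72 and 100.00 on areas 1, 2 and 3 of slide 1 and 99.66, 99.77 and 99.81 on slide 2. NR5A2, an orphan nuclear receptor that granulosa cells need for ovulation in mice, read 98.67, 98.84 and 98.26 on slide 1 and 98.49, 98.74 and 98.23 on slide 2. Both were high on every array, INHBA at 146 to 545 times the limit and NR5A2 at 74.6 to 230 times. FSHR, the FSH receptor, read 86.96, 83.72 and 91.36 on slide 1 and 85.90, 83.19 and 90.21 on slide 2. CYP19A1, the aromatase that makes oestradiol, read 79.69, 80.52 and 88.48 and then 77.97, 80.09 and 88.20. For both genes the third replicate was the highest on each slide. CYP19A1 and NR5A2 had 3 probes each. The lowest CYP19A1 probe averaged 41.5, below CPS1, and the lowest NR5A2 probe 77.8, outside the high class, so their levels depend on the probe chosen. CYP11A1, which cleaves the side chain of cholesterol in the first step of steroid synthesis, read 76.67, 80.19 and 82.25 on slide 1 and 69.39, 76.99 and 79.22 on slide 2. These 3 markers were in the middle class with all arrays above the limit, and their mean percentiles lay above that of CPS1. For CYP11A1, at 77.5 ± 4.0, this margin was small, and its mean in replicate 1, 73.0, lay below the CPS1 mean of 76.0. The lowest single intensity among the 3 markers was 1.37 times the limit. FOXL2, a transcription factor that maintains granulosa cell identity, went against the label. Its single probe read 14.66, 15.35 and 19.72 on slide 1 and 22.92, 20.96 and 18.19 on slide 2, and was below the limit on all 6 arrays, at 0.838 to 0.968 of it. Whether this probe can report the transcript was not tested.

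**Figure D1:**
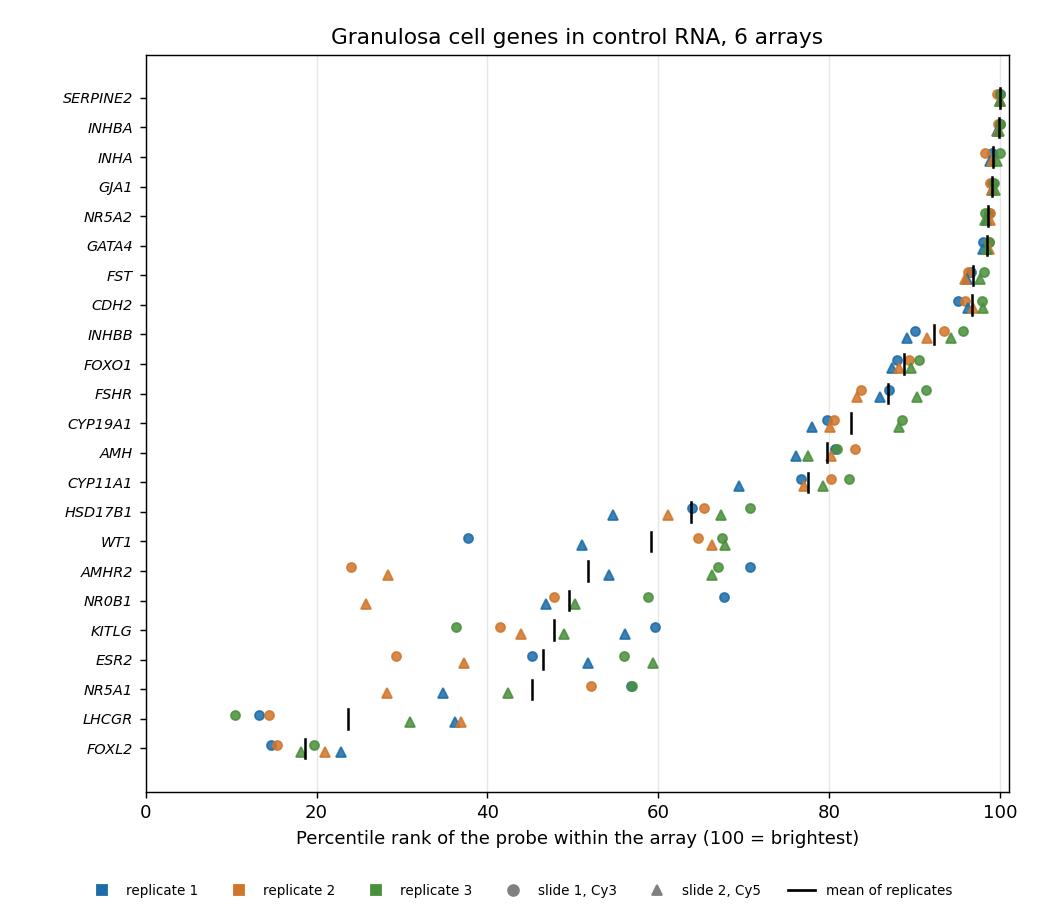
Percentile rank within the array (horizontal axis, 100 is the brightest probe) of the 23 granulosa cell genes on the array, with colours for the 3 replicates, circles for slide 1 (control on Cy3), triangles for slide 2 (control on Cy5) and bars for the mean. The points of CYP11A1 span 69.4 to 82.2, WT1, AMHR2 and ESR2 span over 20 percentiles between replicates, and FOXL2 is last at 14.7 to 22.9.

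Of the 23 granulosa cell genes on the array, 9 were high, 12 were in the middle class, LHCGR was detected in part and FOXL2 was not above the limit. Their median percentile was 82.5 against 61.1 for all named genes. The high share was 39.1%, against 16.6% of all named genes. Above CPS1 lay 14 of the 23 (60.9%), against 35.4%. SERPINE2 led the list at 99.9 ± 0.11. GJA1, the main connexin of granulosa cell gap junctions, ranked 99.1 ± 0.21, and GATA4, a transcription factor of somatic gonadal cells, 98.4 ± 0.39. The lower end of the list held receptors and regulators close to the limit. ESR2, the oestrogen receptor of granulosa cells, ranked 46.5 ± 12.3 at 1.01 to 1.45 times the limit. NR5A1, the steroidogenic factor 1, ranked 45.2 ± 4.8 and was above the limit on 4 arrays. LHCGR, the LH receptor that large follicles acquire, read 13.3, 14.5 and 10.4 on slide 1 and 36.2, 36.9 and 30.9 on slide 2. It was above the limit on 2 arrays, both on slide 2, and the other LHCGR probe averaged a percentile of 3.95.

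Among the inhibins, activins and related ligands, the subunits and their binding proteins stood above the other ligands of the transforming growth factor beta (TGF-beta) family. Of 14 genes 4 were high, and all 4 were inhibin or activin subunits or the activin-binding follistatin. INHA, the alpha subunit that pairs with a beta subunit to form inhibin, ranked 99.1 ± 0.62 and INHBB, the beta B subunit, 92.3 ± 2.70. FST, the follistatin that binds and blocks activin, ranked 96.8 ± 0.98, and its relative FSTL3 86.0 ± 3.70. AMH, the anti-Müllerian hormone of growing follicles, ranked 79.7 ± 1.70 with intensities of 1.83 to 6.61 times the limit. At the other end, TGFB1 and GDF15 were above the limit on no array, BMP4 was above it on 1 and TGFB2 on 3. The 14 genes had a median percentile of 73.5, and 6 of them lay above CPS1. Their high share was 28.6%, against 16.6% of all named genes.

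The receptor list of 27 genes had 4 high members, 19 in the middle and 3 not above the limit, with a median of 70.8 and 13 genes above CPS1. The high share, 14.8%, is near the 16.6% of all named genes. Its high members were PGRMC1, a membrane component linked to progesterone action, at 98.3 ± 0.5, TGFBR3, a co-receptor for inhibin, at 96.6 ± 2.1, BMPR1B, a type I receptor of bone morphogenetic proteins, at 92.7 ± 1.9, and the glucocorticoid receptor NR3C1 at 91.9 ± 2.9. BMPR1B was lowest in the second replicate, which read 90.5 on both slides against 93.7 to 94.04 on the other arrays. PGR, the nuclear progesterone receptor that the LH surge induces, lay just below the high class and varied little, with 89.0 to 89.7 over the arrays. ACVR1B, a type I activin receptor, ranked 87.8 ± 2.1. Above the limit on no array were the oestrogen receptor ESR1, the TGF-beta receptor TGFBR1 and the prolactin receptor PRLR. The level of the androgen receptor, which was in the list but has no named probe, was not analysed here.

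In steroid synthesis, genes of cholesterol supply lay both above and below the enzymes CYP19A1 and HSD3B1. Of 16 genes in the list, 3 were high, 10 were in the middle class, 2 were detected in part and 1 was not above the limit. The median was 73.7, and 7 genes lay above CPS1. A high share of 18.8% is near the 16.6% of all named genes. SOAT1, which esterifies cholesterol for storage, ranked 97.9 ± 0.53. FDX1, the ferredoxin that passes electrons to mitochondrial steroid hydroxylases, ranked 95.7 ± 1.10, and the peroxisomal enzyme HSD17B4 91.9 ± 2.10. These were the only high members, and CYP19A1 and CYP11A1 lay below them. HSD3B1, which converts pregnenolone to progesterone, ranked 84.7 ± 3.70, and its replicate means were 81.8, 83.5 and 88.8. NPC2, a carrier of lysosomal cholesterol, ranked 89.6 ± 3.1. STAR, which moves cholesterol into mitochondria, read 74.6, 72.1 and 65.2 on slide 1 and 79.9, 73.0 and 68.6 on slide 2, so it was highest in the first replicate where HSD3B1 and CYP19A1 were lowest. Another STAR probe averaged 12.9, so the level of STAR depends on the probe chosen. The carrier STARD4 was above the limit on no array, its relative STARD3 on 3, and the oestrogen sulphotransferase SULT1E1 on 1.

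No gene of the insulin-like growth factor (IGF) system was high, against 16.6% of all named genes, and the 11 genes had a median of 42.5. STC1, a secreted inhibitor of the protease PAPPA, ranked highest at 82.0 ± 0.9, followed by the ligand IGF2 at 77.7 ± 8.7. IGFBP4, a binding protein that PAPPA cleaves, ranked 68.5 ± 1.6. PAPPA itself ranked 32.1 ± 4.7 and IGFBP5 and IGFBP1 were above the limit on no array. Only STC1 and IGF2 lay above CPS1, 18.2% of the list against 35.4% of all named genes.

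Among 35 transcription factors 13 (37.1%) were high, against 16.6% of all named genes. FOS, a subunit of the AP-1 factor that is induced within minutes by many stimuli, read 99.2 to 99.7 on the 6 arrays. The early response nuclear receptor NR4A1 ranked 98.9 ± 0.37, CEBPD, a factor induced in inflammation, 99.4 ± 0.1, and the hypoxia factor HIF1A 99.6 ± 0.2. These genes varied by under 2 percentiles between arrays. The other FOS probe averaged 58.3. The list's median was 80.2, and 20 of its 35 genes (57.1%) lay above CPS1, against 35.4% of all named genes. At the bottom, CEBPA, a factor that acts with its relatives in luteinization in mice, was above the limit on no array, and the gonadal factor LHX9 and RUNX1, which the LH surge induces, were above it on 3 arrays each.

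The cAMP pathway, through which FSH and LH act, had 4 high members among 19 genes, none of them a subunit of the cAMP-dependent kinase. GNAS, the stimulatory G protein subunit, ranked 99.7 ± 0.05, the beta subunit GNB1 95.1 ± 0.4 and the adenylyl cyclase ADCY6 92.2 ± 1.0. RGS2, a regulator of G protein signalling, had replicate means of 87.0, 98.1 and 93.9 and was highest in the second replicate. The regulatory kinase subunit PRKAR1A and the phosphodiesterase PDE8A both ranked 83.0. The catalytic subunit PRKACB was above the limit on 1 array, the cyclases ADCY9 and ADCY3 on 2 and 1, and the anchoring protein AKAP12 on none. Of the rest, 9 were in the middle class, the median of the list was 55.7, and 8 of the 19 genes lay above CPS1. The list's high share was 21.1%, against 16.6% of all named genes.

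Of 17 genes that the LH surge induces in granulosa cells 3 were high, 12 were in the middle class and 2 were detected in part. The share of high genes, 17.6%, is near the 16.6% of all named genes. Their median was 74.4, and 8 lay above CPS1. Beside RGS2, the high members were BTC, an epidermal growth factor ligand, at 90.4 ± 2.5, and the protease ADAMTS1, which cleaves versican, at 90.3 ± 2.6. PLAU, the urokinase plasminogen activator, ranked 88.5 ± 6.7 and SNAP25, a protein of vesicle fusion, 85.9 ± 4.2. HAS2, the hyaluronan synthase of cumulus expansion, ranked 36.7 ± 5.8. It read 14.8, 33.5 and 19.3 on slide 1 and 57.6, 52.1 and 43.1 on slide 2, so its place depends on the slide. NTS, the neuropeptide neurotensin, was above the limit in the third replicate only, where it read 84.9 and 94.8 against 8.23 to 25.5 on the other arrays. PTGS2, the prostaglandin synthase of ovulation, was picked after its values were seen and had replicate means of 31.5, 35.0 and 65.5. Of the 10 luteal cell genes only RGS2 was high (10%) and 2 (20%) lay above CPS1, against 16.6% and 35.4% of all named genes. OXT, which encodes oxytocin, ranked 75.3 ± 0.7.

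Of 26 genes of the follicular matrix 9 (34.6%) were high and 13 (50%) lay above CPS1, with a median of 75.9. Of all named genes 16.6% were high and 35.4% lay above CPS1. LAMA1, a laminin chain of the basal lamina, ranked 98.3 ± 0.6 and the protease inhibitor SERPINA5 96.4 ± 0.6. SPARC, a collagen-binding protein, ranked 94.1 ± 2.2 and the metalloproteinase inhibitor TIMP2 93.2 ± 1.5. The basal lamina genes NID1 and COL4A2 were above the limit on no array. Cell contact genes had a median of 83.8, with 6 of 13 (46.2%) high and 7 (53.8%) above CPS1. The catenins of adherens junctions CTNNA1 and CTNNB1 ranked 99.3 ± 0.2 and 98.96 ± 0.18, with GJA1 between them. TJP1, a scaffold of tight junctions, ranked 98.1 ± 0.3, and the cadherin CDH2 96.6 ± 1.2. CDH1, the cadherin of epithelia, ranked 26.1 ± 1.3, and the desmosome gene JUP and the tight junction gene OCLN were above the limit on 3 arrays each.

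Genes of both survival and death stood high. Of 18 genes 9 (50%) were high and 11 (61.1%) lay above CPS1, against 16.6% and 35.4% of all named genes. The median was 88.2. FAS, a death receptor, ranked 99.1 ± 0.1 and CYCS, the cytochrome c that is released in apoptosis, 98.5 ± 0.3. The anti-apoptotic MCL1 ranked 97.1 ± 0.3 and its relative BCL2L2 93.2 ± 1.7. The stress-induced growth arrest genes GADD45A and GADD45B ranked 96.6 ± 1.1 and 96.2 ± 0.8. BCL2 ranked 48.7 ± 3.2, and the pro-apoptotic BAK1 and BAD were above the limit on 1 array and on none.

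Lists of general cell machinery were among the highest. The 65 cytosolic ribosomal protein genes had a median of 99.4, with 58 high, and RPL3L was the lowest at 13.7 ± 2.5. Protein folding genes followed with 19 of 23 high and a median of 95.8. They were led by PDIA6, the chaperones HSPA8 and HSP90AA1, and XBP1, a transcription factor of the unfolded protein response at 99.4 ± 0.2. Of 79 respiratory chain genes 55 were high, and the median was 95. The proteasome had 28 of 45 genes high, the translation factors 33 of 61 and the mitochondrial ribosome 27 of 76, with medians of 93.2, 91.7 and 85.4. Between 75.4% and 96.9% of the genes of these 6 lists lay above CPS1, against 35.4% of all named genes. Their high shares were 35.5% to 89.2%, against 16.6%.

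Antioxidant enzymes, glycolysis and the cytoskeleton reached similar levels. In this order their high shares were 66.7%, 62.5% and 54.2%, against 16.6% of all named genes. Their shares above CPS1 were 83.3%, 81.2% and 79.2%, against 35.4%. Of 24 antioxidant genes 16 were high and 20 lay above CPS1, led by the mitochondrial superoxide dismutase SOD2 at 99.1 ± 0.6, the peroxiredoxin PRDX4 at 98.99 ± 0.14 and the catalase CAT at 98.7 ± 0.3. All 24 were above the limit on at least 4 arrays, with NQO1 the lowest at 54.6 ± 9.9. Of 16 glycolysis genes 10 were high and 13 lay above CPS1. Both lactate dehydrogenase subunits, LDHA at 99.7 ± 0.2 and LDHB at 99.6 ± 0.1, stood above the hexokinases HK2 and HK1 at 74.9 ± 5.0 and 74.4 ± 2.2. Of 24 cytoskeletal genes 13 were high and 19 lay above CPS1, with the actin ACTG1 at 99.6 ± 0.2 and the thymosins TMSB10 and TMSB4X at 99.3 ± 0.3 and 99.2 ± 0.4. PFN1, an actin-binding protein that cells commonly express strongly, ranked 46.3 ± 13.8 with its brighter probe and 34.0 with its other.

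Most cell cycle genes were in the middle class, 27 of 36, while 8 were high and 20 lay above CPS1. The high share was 22.2%, against 16.6% of all named genes. PCNA, the clamp of DNA polymerase, ranked 98.6 ± 0.2, the ribonucleotide reductase RRM1 97.6 ± 0.5 and CCND2, the D-type cyclin that FSH induces in granulosa cells of mice, 97.3 ± 1.4. Genes of mitosis were also high, with the checkpoint kinase BUB1 at 94.9 ± 1.3, the kinetochore protein CENPF at 93.8 ± 1.4 and the cyclin CCNB1 at 92.2 ± 1.8. MKI67, the proliferation marker, ranked 48.7 ± 1.3 and the mitotic kinase PLK1 48.6 ± 0.7, and CCND1 was above the limit on no array. Of 20 interferon-stimulated genes 5 (25%) were high and 9 (45%) lay above CPS1, against 16.6% and 35.4% of all named genes. IFIT5 ranked 98.3 ± 0.5 and the membrane proteins IFITM3 and IFITM2 97.6 ± 0.5 and 93.6 ± 1.0, while the classical interferon markers MX1 and OAS2 ranked 39.9 ± 16.5 and 37.3 ± 1.8.

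**Figure D2:**
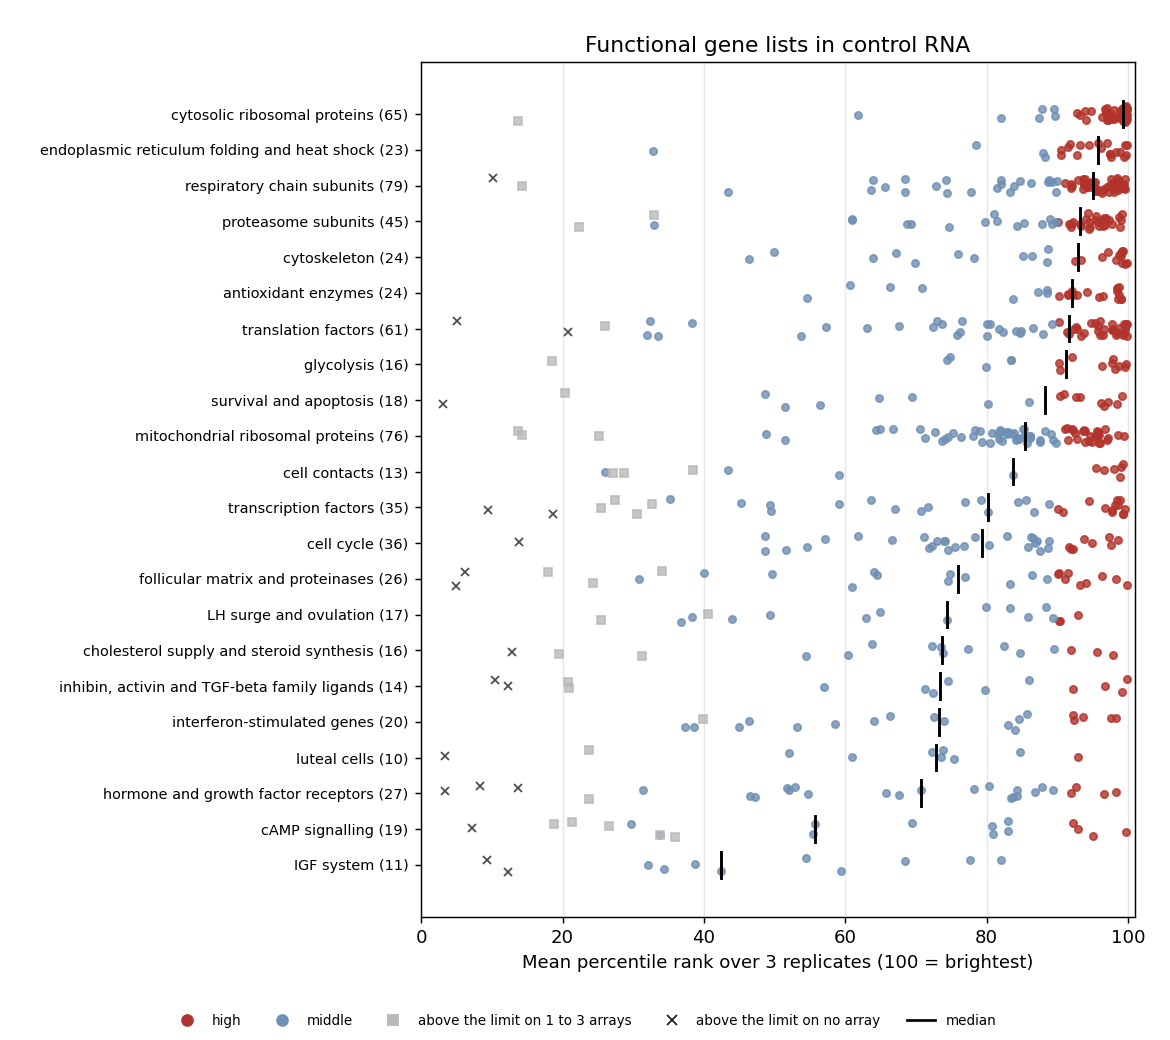
Mean percentile over the 3 replicates (horizontal axis, 100 is the brightest probe) of every member of 22 functional lists, 1 point per gene, with the number of genes in brackets and lists ordered by their median (bar). Circles are high or middle, squares are above the limit on 1 to 3 arrays and crosses on none; lists of cell machinery fill the top, and the IGF system is lowest with a median of 42.5.

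Markers of other cells of the ovary were looked at next, since follicles are aspirated with their fluid and may bring theca, blood, oocytes or surface cells. In such bulk RNA, fewer cells of a type and less RNA per cell cannot be told apart. The theca and stroma list had the highest median of these, 69.7, with 4 of 18 genes high and 7 above CPS1. These shares, 22.2% and 38.9%, stand against 16.6% and 35.4% of all named genes. The 4 high genes were the smooth muscle actin ACTA2 at 96.7 ± 1.1, the hedgehog receptor PTCH1 at 96.2 ± 0.6, the growth factor receptor PDGFRA at 91.7 ± 1.2 and the matrix protein LUM at 91.5 ± 1.3. All other members lay lower, because these 4 are the high class. CYP17A1 and INSL3 were picked from the others after their values were seen, so they do not speak for the list. CYP17A1, the theca enzyme that makes androgens, ranked 34.8 ± 5.1 and was above the limit on 4 arrays, and INSL3, a theca hormone, ranked 62.1 ± 1.3. Both lay below CPS1. Several theca and stroma genes differed between replicates: the proteoglycan DCN read 77.2, 95.8 and 87.4 as replicate means, and the collagen COL3A1, also picked after its values were seen, 38.8, 96.6 and 77.2.

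No endothelial, leukocyte, red cell, platelet or oocyte marker was high, against 16.6% of all named genes, of which 35.4% lay above CPS1. The 15 endothelial genes had a median of 40.7, and only KDR, a receptor of vascular endothelial growth factor, lay above CPS1 at 77.2 ± 6.4. Of the 15 genes 8 were in the middle class, 5 were detected in part and 2, PECAM1 and FLT1, were above the limit on no array. The 28 leukocyte genes had a median of 55.1 with 5 above CPS1. GZMA, a protease of cytotoxic lymphocytes, ranked 88.6 ± 1.0, the chemokine receptor CXCR4 85.2 ± 6.6 and the class II gene BOLA-DRA 81.4 ± 7.9. PTPRC, the antigen CD45 of all leukocytes, ranked 75.5 ± 4.5 with 1 probe and 0.21 with its other, while the myeloid genes ITGAM and CSF1R were above the limit on no array. The haemoglobin gene HBB ranked 86.3 ± 7.6, with replicate means of 77.8, 92.6 and 88.4, and the platelet chemokine PPBP 85.1 ± 7.6. Both lay above CPS1, as no other of the 10 red cell and platelet genes did, and without replicate 1 this list had 1 high member. Of 18 oocyte genes only KPNA7, an importin, lay above CPS1 at 82.8 ± 3.2. The list's median was 42.9, and the zona pellucida gene ZP4, the oocyte factor NLRP5 and ZAR1 were above the limit on no array.

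**Figure D3:**
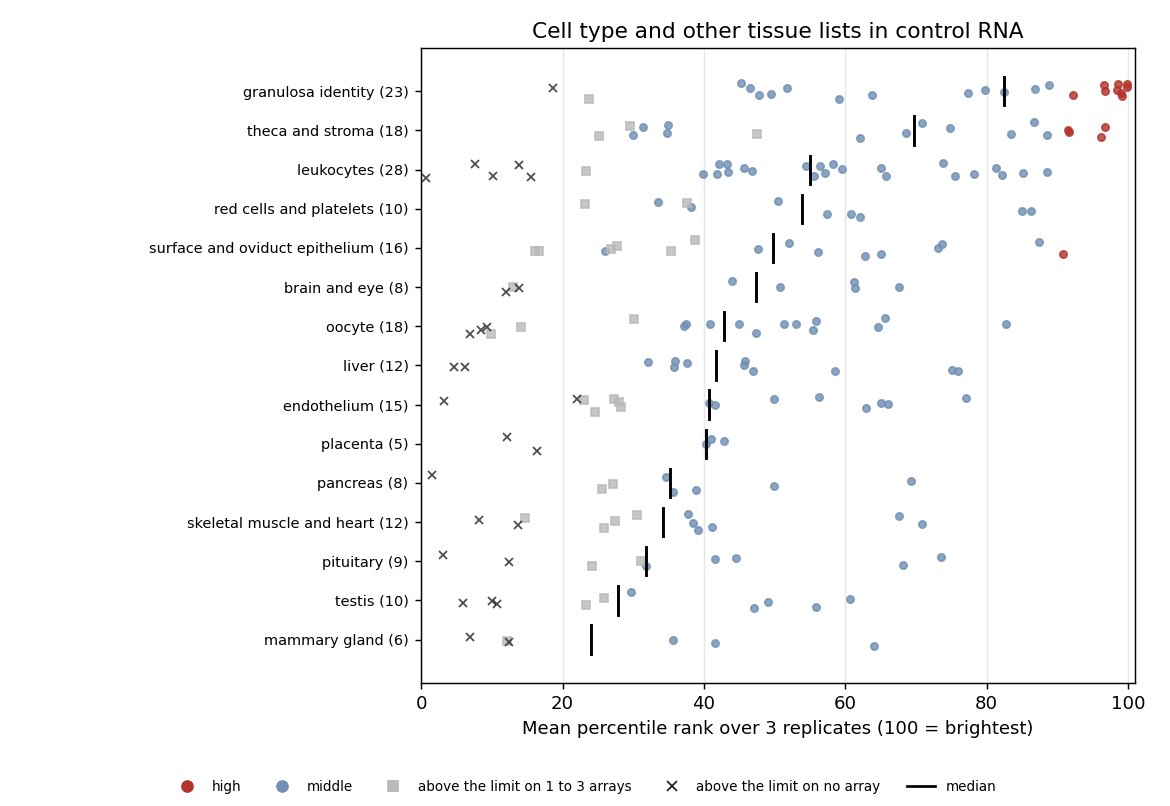
Mean percentile over the 3 replicates (horizontal axis, 100 is the brightest probe) of every member of the 7 cell type lists and the 8 other tissue lists, 1 point per gene, with the number of genes in brackets and lists ordered by their median (bar). Circles are high or middle, squares are above the limit on 1 to 3 arrays and crosses on none; red circles, the high class, occur in the granulosa cell list (9), the theca and stroma list (4) and the epithelium list (1).

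The ranks of bright genes were stable, and a small set of others spanned over 20 percentiles between replicates. High genes had a median range over the replicates of 1.44 percentiles and a median difference between slides of 0.358, and middle genes 6.73 and 2.45. Of the genes above the limit on at least 4 arrays, 604 (5.07%) spanned over 20 percentiles between replicates and more than any difference between the slides of 1 area. Their agreement between slides, and that of the 12 widest among them, is part of this choice and not a result. Replicate 3 was the highest for 323 of these 604 genes, while 169 peaked in replicate 2 and 112 in replicate 1. The lowest was replicate 2 for 275, replicate 1 for 258 and replicate 3 for 71. Among the 12 genes with the widest span replicate 1 was the lowest in all, which the full set of 604 does not share.

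**Figure D4:**
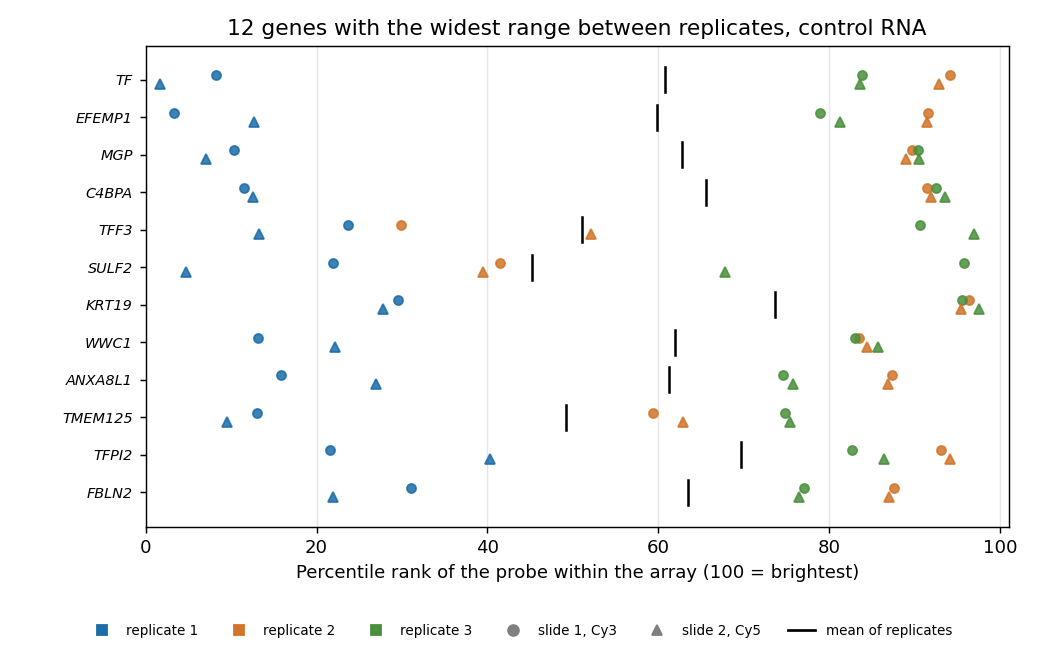
Percentile rank within the array (horizontal axis, 100 is the brightest probe) of the 12 genes with the widest range between replicates, with colours for the 3 replicates, circles for slide 1, triangles for slide 2 and bars for the mean. The points of replicate 1 are the leftmost for all 12 genes on both slides, below 41 percentiles.

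TF, which encodes the iron carrier transferrin, read 8.29, 94.1 and 83.9 on slide 1 and 1.71, 92.9 and 83.5 on slide 2. MGP, a matrix protein that inhibits calcification, read 10.4, 89.6 and 90.4 and then 7.02, 89.0 and 90.4. KRT19, a keratin of simple epithelia, read 29.5, 96.3 and 95.5 and then 27.7, 95.4 and 97.5. In these 3 genes replicates 2 and 3 were above a percentile of 83 and replicate 1 was near or below the limit, on both slides. C4BPA, a regulator of complement, had replicate means of 12.04, 91.7 and 92.98. TFF3, a peptide secreted by mucous epithelia, had 18.5, 41.0 and 93.8, and the sulphatase SULF2 13.4, 40.5 and 81.8, so these 2 genes were highest in the third replicate. The matrix proteins EFEMP1 and FBLN2, the protease inhibitor TFPI2, the annexin ANXA8L1, the scaffold protein WWC1 and TMEM125 spanned 60.9 to 83.5 percentiles.

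Of the 16 genes of the surface and oviduct epithelium list, 2 (12.5%) lay above CPS1, against 35.4% of all named genes. Only the 10 above the limit on at least 4 arrays could be of wide span, and 6 of them (60%) were, against 5.07% of all such genes. A gene can pass the filter of 4 arrays through the replicates in which it is bright, so this count is a description only. The 6 were EPCAM, KRT7, KRT19, MUC16, UPK3B and CLDN4, of which 5 were lowest in replicate 1 and 5 were highest in replicate 3. EPCAM, an adhesion molecule of epithelial cells, read 19.1, 75.9 and 85.7 on slide 1 and 40.1, 79.1 and 90.5 on slide 2. Over all 16 genes of the list, the medians of the 3 replicates were 29.1, 45.1 and 66.4. MSLN, a marker of the ovarian surface, and KRT23 were above the limit on 1 array each, and OVGP1, the glycoprotein of the oviduct, ranked 26.9 ± 4.0. The only high member, the secreted iron-binding protein LTF, read 88.3 to 90.5 on 5 arrays and 98.6 on slide 2, area 3. The list had 3 high members without replicate 1, and none without replicate 3 or on slide 1 alone. The mucosal glycoprotein DMBT1 had replicate means of 81.7, 83.2 and 97.2.

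Beside these values, the medians of the granulosa cell list by replicate were 78.8, 81.6 and 88.3, those of the theca and stroma list 65.8, 76.6 and 71.0, those of the leukocyte list 45.5, 56.5 and 53.2, and those of the endothelial list 40.0, 42.3 and 39.9. In the leukocyte list 6 of the 22 members above the limit on at least 4 arrays (27.3%) were of wide span, among them the macrophage genes CD14 and CD163. Of these 6, 5 were lowest in replicate 1. BMP2, BMP6 and TGFB3 among the TGF-beta family ligands were lowest in replicate 1 and highest in replicate 2, with BMP2 at 47.9, 88.4 and 80.9. Of the granulosa cell list, WT1, AMHR2 and ESR2 were of wide span and highest in replicate 3. AMHR2, the AMH receptor, had replicate means of 62.5, 26.2 and 66.6, and WT1, a transcription factor also found in the ovarian surface, 44.4, 65.4 and 67.6. The genes of wide span in these lists were named after their values were seen. No steroid synthesis, cAMP, cell contact, survival or glycolysis gene and no gene of the 6 machinery lists was of wide span. These absences are weak evidence of a contrast with the lists above. The steroid synthesis, cAMP, cell contact, survival and glycolysis lists had only 10 to 16 members above the limit on at least 4 arrays. Of all such named genes 5.07% were of wide span. The machinery lists had medians of 85.4 to 99.4, and a gene near the top of the scale has little room for such a span. What part the epithelial, stromal or blood cell markers have in the differences between replicates was not tested.

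Slide and dye go together, and the widest differences between slides were in dim probes. The largest among genes with the same sign in all 3 areas were 38.9 percentiles higher on slide 2 for PKLR, a pyruvate kinase, which read 1.27, 30.3 and 9.45 on slide 1 and 60.4, 54.6 and 42.9 on slide 2. In the other direction, CDT1, a DNA replication licensing factor, was lower on slide 2 by a slide 2 minus slide 1 difference of -45.2. High genes differed by -5.97 to 3.04 between slides. ECT2L, CYP8B1, RAPGEF5, HAS2 and RSPH4A followed PKLR on the side of slide 2, and SMCP, OTX1, PARP16, ST3GAL5 and CDH24 followed CDT1 on the side of slide 1, with mean percentiles of 33.2 to 50.9 over all 12 genes. All 12 lay below the median of the named genes.

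Probes of the same gene often differed more than replicates did. Among the 4034 genes with several probes, the median range between probes was 35.3 percentiles, and 1264 genes spanned over 50. Of the 1182 high genes with several probes, 180 had another probe that was above the limit on no array. With the median over a gene's probes in place of the brightest one, the high members numbered 2 instead of 4 among the receptors, 0 instead of 4 in the cAMP list and 1 instead of 3 among the LH surge genes. They also numbered 3 instead of 5 among the interferon-stimulated genes, 2 instead of 4 in the theca and stroma list, 16 instead of 28 in the proteasome and 14 instead of 27 in the mitochondrial ribosome, and RGS2 was no longer high. At the threshold of the high class the ranks are continuous, with TRNAU1AP just inside at 90.0009 and ABCB1 just outside at 89.9914.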

How the data were processed

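The authors deposited scanner tables of spot intensities for 6 dual-colour arrays, mean and median pixel values of spot and local background per channel, per the file headers. Per the labels' protocols, a kit for minute amounts served to isolate the RNA, which went through 2 rounds of T7 amplification and was labelled chemically with Cy3 or Cy5. No source used here names the scanner or its software. The deposited table of log ratios gives no level of a single RNA and was not used.

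For the control channel, the median local background was subtracted from the mean intensity of each spot. The 43794 gene probes of 45220 spots were ranked within each array, and ranks were averaged over both slides per area and then over areas. After subtraction of the mean percentile of each slide, arrays of the same area correlated across probes at 0.212, 0.639 and 0.562 and others at -0.559 to 0.124, so areas were taken as replicates. Averaging the slides first leaves their differences out of the SD. At most 1 gene probe per array was counted as near the top of the scanner's range. The brightest intensity was similar on all arrays, at 36453 to 39823, and 110 to 204 gene probes per array lay within 10% of it. The count therefore does not show that the top ranks are free of compression, which was not tested. The number of arrays limits the precision.

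Symbols came from the platform annotation: 21790 probes had 1 symbol, 0 several and 22004 none. Of these symbols 21549 were found in a RefSeq list of bovine genes, 1524 of them after an update. The genes named are the 30 highest, the 6 markers, up to 6 highest and 4 lowest of each of 37 lists, the 12 of widest range, 6 per direction of slide difference and those next to the threshold of 90. The lists, the markers and this rule were chosen with earlier results of these data known, and the other tissue genes were taken as a yardstick after their values were seen. Alternatives were median pixels, no background subtraction, normexp (limma 3.58.1, offset 50), the 99th percentile of the negative controls, all 6 arrays, the median over a gene's probes, single slides, and each replicate left out. Python 3.11.15, numpy 2.4.6 and pandas 2.3.3 were used, and the ranking was tested on simulated data.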

Additional observations from a re-analysis of the deposited data

Results flagged for a closer look

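The median percentile of the brain and eye genes was 39.4 on slide 1, area 1, and 46.8 to 50.7 on the other 5 arrays, a gap wide for 6 values. This was 1 of 41 sets of array values examined, and such a gap occurs by chance in about 1 of 20 sets, so a single one among them is not unusual.

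Of the probes without a symbol, 1494 (6.79%) were in the high class, and 33 of the 100 brightest probes had no symbol. They were left out of the description of named genes above.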

How the results depend on the processing

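With the median over a gene's probes in place of the brightest probe, 1576 named genes (10.4%) were high instead of 2521. The requirement of all 6 arrays is part of the definition of the high class, so it could not change the 2521 high genes. All 2521 also remained with normexp and with the stricter limit. These 2 settings are weak checks, because normexp moved the named genes of the text by at most 0.000761 percentiles and the limit does not enter the ranks. Of the 2521, 2520 remained without background subtraction and 2483 with median pixels. Without each replicate in turn 2427 to 2464 remained, and on slide 1 or slide 2 alone 2467 and 2469. In detection, 21 of the 70 other tissue genes were above the limit with median pixels and 20 when all 6 arrays were required, against 42, and the named genes above the limit on no array numbered 2380 on slide 2 alone, against 1383. Of 197 named genes in the text, 45 moved by more than their SD with median pixels (by at most 14.6 percentiles), 42 with the median over probes (at most 64.4) and 39 on either slide alone (at most 22.6). The causes were not tested. Dim probes, close to the negative controls, limit what the lower ranks can show, and no paired analysis was possible because only 1 group was described.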
